A study of Arabidopsis thaliana with 45 samples.

Results

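H3K27me3 was compared between GFP-FIE plants and wild type across all peaks that the authors called on the 5 nuclear chromosomes of Arabidopsis thaliana. The set was taken by its labels, as every peak of the 3 GFP-FIE and the 3 Ctrl libraries made with the H3K27me3 antibody, and holds 47757 of the 221284 peaks in the 33 peak lists of the series. It rests on 6 of 45 libraries, which form 15 groups of 3, and the RNA libraries of the same genotypes and age, 3 of each, were read beside them. Ctrl was Col-0 wild type. GFP-FIE was a fie mutant (genotype GFP-FIE/fie) that carried a transgene for wild-type FIE fused to green fluorescent protein, obtained by transforming heterozygous plants and isolating homozygotes by genotyping. All were 2-week-old plants of which the aerial part was taken, grown on solid medium with sucrose. The labels give neither the promoter of the transgene nor the number of independent lines, so the GFP-FIE libraries may all come from 1 line. Oestradiol, which induces the transgenes of other groups, is named for neither genotype, and the labels do not say whether the Ctrl medium held it. The comparison asks how far the tagged wild-type protein restores the mark in a fie mutant, against which the series sets a phosphorylation-site mutant form of the same fusion.

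Trimethylation of lysine 27 on histone H3 is deposited by Polycomb repressive complex 2 (PRC2), in which FIE is the WD40 subunit that binds the modified histone tail and the catalytic subunits are CLF, SWN or MEA. In plants the mark lies over the bodies of developmental genes that are silent in a given tissue, such as floral homeotic genes in leaves. Loss of FIE function is known to be lethal to the embryo, and plants with reduced FIE form disorganised tissue with ectopic organs.

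Most of the wild-type pattern was present in GFP-FIE. A gene was called marked in a library where peaks covered at least 200 bp of it, and of 4913 protein-coding genes marked in all 3 Ctrl libraries, 4269 were marked in all 3 GFP-FIE libraries as well. Another 326 were marked in 2 GFP-FIE libraries, 193 in 1 and 125 in none. In the other direction, 9 genes were marked in every GFP-FIE and no Ctrl library. Fewer peaks were called in GFP-FIE, and genes that kept the mark had slightly less of their length covered.

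Ctrl libraries held 8603, 8904 and 8308 peaks, and GFP-FIE libraries 7200, 7464 and 7278. Every GFP-FIE library lay below every Ctrl library. The means were 8605 ± 298 and 7314 ± 136 peaks (SD, n = 3 each), a GFP-FIE to Ctrl ratio of 0.850, with single-library ratios from 0.809 to 0.898. The two-sided exact permutation test gave p = 0.1, the smallest p that 3 against 3 allows, and 0.125 after Benjamini-Hochberg adjustment over 5 library-level values. Separate plants or cultures per library are not stated, so such a p measures the spread between these libraries only.

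Peaks covered 6.48, 6.68 and 6.05 Mb in Ctrl and 5.28, 5.67 and 5.28 Mb in GFP-FIE, without overlap between the groups. The means were 6.40 ± 0.324 Mb and 5.41 ± 0.229 Mb (SD, n = 3), a ratio of 0.845 (two-sided exact permutation p = 0.1, adjusted 0.125). The covered length moves with how many peaks were called, and the mean peak width was 744 ± 13.8 bp in Ctrl and 739 ± 18.3 bp in GFP-FIE (n = 3, ratio 0.994, exact permutation p = 0.9, adjusted 0.9). Over the full lists GFP-FIE thus had fewer peaks of nearly the same mean width. With each list cut to its 7200 strongest peaks, the covered length was still lower in GFP-FIE, with a ratio of 0.909 (exact permutation p = 0.1). That number is the whole list of GFP-FIE replicate 1, so the cut takes more of the weakest peaks from the Ctrl lists. Peaks of at least 1 kb numbered 2156 ± 160 and 1816 ± 122 (n = 3, ratio 0.843), and marked protein-coding genes 5518 ± 172 and 4962 ± 94.4 (n = 3, ratio 0.900), each with an exact permutation p of 0.1. Read depth behind the peak lists is unknown, and its part in the number of peaks was not tested. In tissue pooled from many cells, fewer cells with the mark and less mark per cell cannot be told apart.

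**Figure D1:**
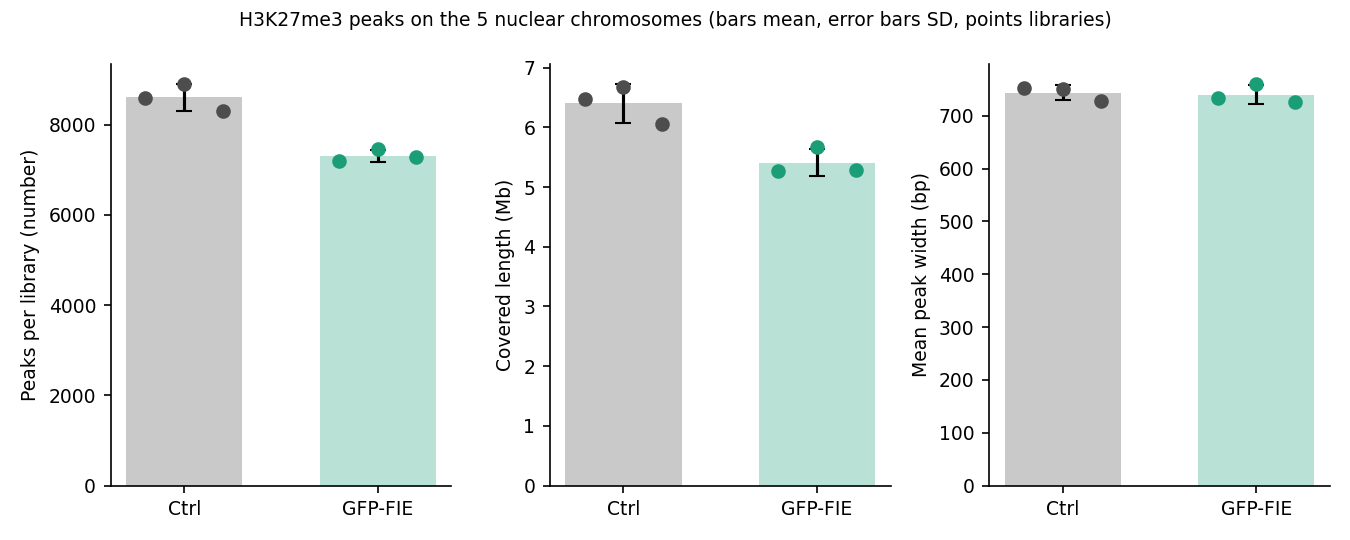
Number of peaks, length covered by peaks in Mb and mean peak width in bp for each H3K27me3 library of Ctrl and GFP-FIE, with bars at the mean of 3 libraries and error bars of 1 SD. Peak number and covered length were lower in each GFP-FIE library than in any Ctrl library, while the widths of the groups overlapped.

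For scale, the 3 libraries of the SSTS/AAAA form, in which the phosphorylation site of FIE is mutated, covered 2.41 to 2.45 Mb. The amiR-fie-es libraries, in which an artificial microRNA against FIE was induced with oestradiol, covered 0.859 to 0.911 Mb. Every GFP-FIE library lay above all of these and closer to Ctrl. All of these groups have the Ctrl libraries as their wild type.

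The share of covered bases held in common was slightly lower between genotypes than within them. This share depends on how much each list covered as well as on position. The bases covered in both of 2 libraries made up 65.7 to 67.0% of the bases covered in either for the 3 Ctrl pairs and 66.1 to 66.7% for the 3 GFP-FIE pairs. Across genotypes the share was 62.3 to 65.3% over 9 pairs, below both ranges. Of the bases covered in a GFP-FIE library, 81.6 to 87.1% lay under peaks of a given Ctrl library. Under peaks of another GFP-FIE library lay 77.2 to 83.1%. Of the bases covered in a Ctrl library, 68.7 to 76.6% lay under peaks of a given GFP-FIE library. Under peaks of another Ctrl library lay 75.7 to 83.7%.

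The peaks found in a single genotype were narrow. In Ctrl 1175, 1334 and 969 peaks overlapped no peak of any GFP-FIE library, or 13.7%, 15.0% and 11.7% of each list. In GFP-FIE 210, 239 and 222 peaks overlapped no Ctrl peak, or 2.92%, 3.20% and 3.05%. Ctrl thus had several times the share of unmatched peaks, and in both genotypes the unmatched peaks were narrower and weaker in the median than the matched ones. The GFP-FIE lists were shorter, so Ctrl peaks were matched against fewer peaks. Most unmatched places were not shared within a genotype either. With peaks merged into regions, those without a GFP-FIE peak numbered 1434 in 1 Ctrl library, 512 in 2 and 221 in 3. Regions without a Ctrl peak numbered 433, 66 and 22 in 1, 2 and 3 GFP-FIE libraries. The median width of such peaks was 300, 303 and 282 bp in Ctrl, against 703, 712 and 672 bp for Ctrl peaks that overlapped one. Of Ctrl peaks under 300 bp, 42.0%, 46.7% and 38.6% had no GFP-FIE counterpart. Wide peaks were nearly all matched. Of those from 1 to 1.5 kb, 0.201%, 0.527% and 0.302% had none, which was 3, 8 and 4 peaks. Within each Ctrl list, sorted into 10 equal classes by the authors' fold enrichment over background, 29.2%, 29.1% and 24.3% of the lowest class had no counterpart and 0 peaks of the highest class.

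**Figure D2:**
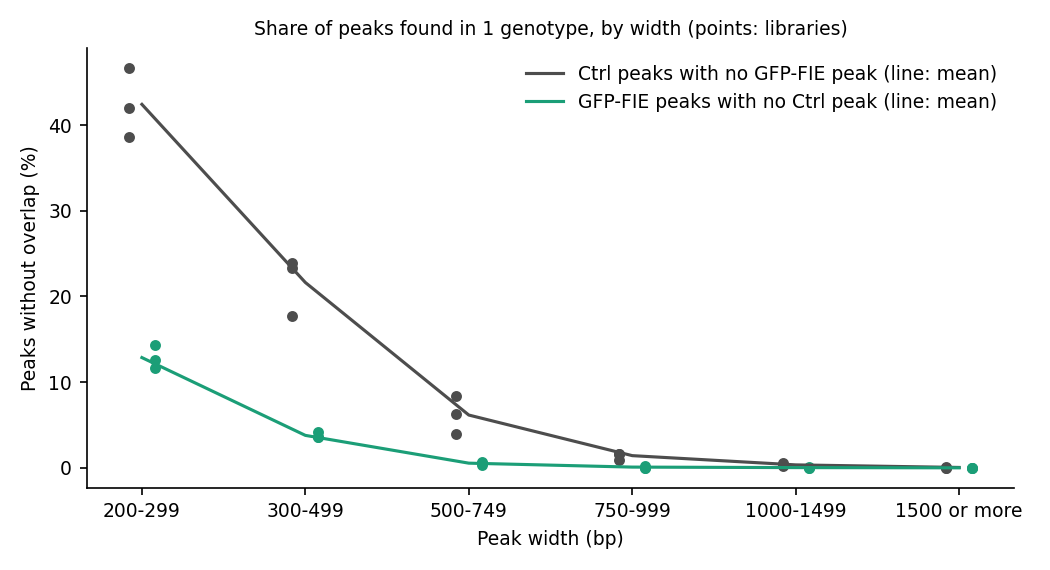
Percentage of peaks that overlap no peak in any library of the other genotype (vertical) by peak width in bp (horizontal), with 1 point per library and a line through the mean of 3. The share falls from 38.6 to 46.7% of the narrowest Ctrl peaks and 11.7 to 14.3% of the narrowest GFP-FIE peaks to nearly 0 from 1 kb upward.

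The 125 genes that lost the mark were 0.455% of the 27444 protein-coding genes examined and 2.54% of those marked throughout Ctrl. They were covered over a shorter length than kept genes, and most of their peaks were below the median fold of the Ctrl lists. Their median covered length in Ctrl was 404 bp, or 24.5% of the gene, where kept genes had 916 bp and 60.7%. The median of the authors' fold at their Ctrl peaks was 3.16, at percentile 39.2 of the Ctrl lists, and 89 of the 125 lay below the median of those lists and 6 above the 75th percentile. In 117 no base of the gene was under a peak in any GFP-FIE library. With each list cut to its 7200 strongest peaks, 48 genes lost and 20 gained the mark, of which 42 and 8 were among those named lost and gained with the full lists. With peaks held to a −log10 q of at least 5, 96 genes lost it, but 11 of these were among the 125 and 42 were marked in every GFP-FIE library in the full lists.

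Those 11 genes, lost under either threshold and singled out after their values were seen, include BETA-TIP (AT1G17810), a tonoplast intrinsic protein of seeds, with 870, 769 and 346 bp covered in Ctrl and 0 in every GFP-FIE library. WNK3 (AT3G48260), a protein kinase of the with-no-lysine family, had 446, 811 and 457 bp in Ctrl and 0 in GFP-FIE. AMS (AT2G16910), a bHLH transcription factor of the anther tapetum, had 328, 270 and 281 bp in Ctrl and 116, 161 and 187 bp in GFP-FIE, so that peaks remained there below the 200 bp needed. The other 8 are known here by locus only.

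Ordered by covered length in Ctrl, the first was AT1G20135, with 1153, 1135 and 902 bp in Ctrl and 0 bp in all 3 GFP-FIE libraries. BGLU45 (AT1G61810), a beta-glucosidase of the family that acts on lignin precursors, had 955, 1049 and 599 bp in Ctrl. TBL43 (AT2G30900), of the trichome birefringence-like family of cell wall acetyltransferases, had 1277, 506 and 633 bp. Both had 0 bp in every GFP-FIE library, as did the next ones in that order. AT4G25020 had 594, 756 and 1049 bp in Ctrl, AT4G37530 had 867, 691 and 697 bp, and AT3G53550 had 663, 939 and 551 bp. CYP71B11 (AT5G25120), a cytochrome P450, had 501, 834 and 739 bp. The Ctrl libraries varied widely among themselves at TBL43 and AT4G25020, while every GFP-FIE library was at 0. The remaining 3 of the 10, AT4G10220, AT4G29770 and AT4G00467, had 357 to 945, 542 to 820 and 628 to 734 bp in Ctrl and 0 in GFP-FIE.

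The lost genes were spread over the genome. Chromosomes 1 to 5 held 36, 24, 20, 20 and 25 of them, or 28.8%, 19.2%, 16.0%, 16.0% and 20.0%, against 26.1%, 15.7%, 19.9%, 15.2% and 23.1% of all protein-coding genes. A kept gene lay directly beside 33.6% of the lost genes, 41.5% of the kept genes and 28.3% of all genes. There were 4 runs of neighbouring lost genes, each a pair: AT1G63055 with AT1G63057, GSTU2 with AT2G29485, AT5G39090 with GLP6, and CYCP4;2 with AT5G61660. GSTU2 belongs to the tau class of glutathione transferases and GLP6 to the germin-like proteins.

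Other H3K27me3 libraries, which had no part in choosing the genes, marked the lost genes less often than the kept ones. All 3 libraries of the 7-day-old Col-0 group marked 13.6% of the lost and 87.5% of the kept genes, where they marked 14.6% of all protein-coding genes. All 3 libraries of the 7-day-old group given DMSO, the solvent control of the inhibitor experiment, covered 7.88 to 8.22 Mb in all and marked 56.8% of the lost, 97.8% of the kept and 26.7% of all genes. None of the 125 was marked throughout the SSTS/AAAA libraries or throughout the amiR-fie-es libraries, and 56.7% and 22.2% of the kept genes were. These shares follow how much was called in each experiment as well as the genes themselves, and no test was made of them.

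The 9 genes that gained the mark were 0.0328% of all protein-coding genes and 0.205% of those marked in every GFP-FIE library. By covered length the first was AT3G55890, with 433, 948 and 1114 bp in GFP-FIE and 0 in Ctrl. AT5G33390 had 778, 408 and 746 bp and AT3G20730 had 426, 493 and 665 bp, also with 0 in Ctrl. AT3G20730 is the protein-coding gene next to FIE (AT3G20740) along chromosome 3. FIE itself had 0 bp in all 6 libraries, and GATA29 on its other side, a GATA-type zinc finger gene, was kept with 431, 541 and 514 bp in Ctrl and 465, 405 and 505 bp in GFP-FIE. The labels do not describe the construct that carries GFP-FIE.

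A few genes of high RNA level were among those gained, but most of the 9 had little RNA. Their median in Ctrl was 0.509 CPM, a count scaled to library size, against 5.86 CPM for all protein-coding genes. LHCA1, UBQ10 and LHCB4.3 stood at 5749, 1152 and 64.2 CPM in Ctrl, and the others at 0.958 CPM or less. LHCA1 (AT3G54890), a light-harvesting protein of photosystem I, had 487, 479 and 292 bp in GFP-FIE and 0 in Ctrl. LHCB4.3 (AT2G40100), a minor antenna protein of photosystem II, had 255, 252 and 324 bp in GFP-FIE and 0 in Ctrl. UBQ10 (AT4G05320), a polyubiquitin gene widely used as a reference transcript, had 269, 557 and 512 bp in GFP-FIE and 169, 0 and 0 bp in Ctrl. AT1G70860, AT4G24030 and EXPA25, an expansin gene, had 200 to 354 bp per GFP-FIE library, and AT4G24030 had 197, 0 and 171 bp in Ctrl, just under the 200 bp needed. LHCA1 and UBQ10 were marked in all 3 libraries of SSTS/AAAA, of amiR-fie-es and of the DMSO group too, and UBQ10 in 2 of the 3 libraries of the 7-day-old Col-0 group.

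Highly transcribed genes as a class, looked at after those names were seen, went against the fall in peak number. The 100 protein-coding genes with the highest RNA level in Ctrl were all at 1100 CPM or more. Of these 17, 17 and 15 were marked in the Ctrl libraries and 28, 25 and 26 in the GFP-FIE libraries. Of all protein-coding genes, 20.2%, 20.7% and 19.4% were marked in the Ctrl libraries and 17.9%, 18.5% and 17.8% in the GFP-FIE libraries. Among the 100, no GFP-FIE library was as low as any Ctrl library. The 100 include 2 of the gained genes whose names prompted the look. All 3 libraries marked 11 of the 100 in Ctrl, 17 in GFP-FIE, 21 in SSTS/AAAA, 18 in amiR-fie-es, 2 in the 7-day-old Col-0 group and 99 in the DMSO group. Of all 27444 protein-coding genes, all 3 libraries marked 4913 in Ctrl and 4383 in GFP-FIE. In the same order, the other groups marked 8.9%, 3.5%, 14.6% and 26.7% of all genes. The cause was not tested.

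Merging the peaks of the 6 libraries gave 10016 regions, of which 5206 (52.0%) held a peak in every library, 221 (2.21%) in every Ctrl and no GFP-FIE library, and 22 (0.22%) in every GFP-FIE and no Ctrl library. Median widths were 1196.5 bp for kept, 607 bp for lost and 457.5 bp for gained regions. At least 1 kb was reached by 3370 kept, 21 lost and 3 gained regions. A protein-coding gene was overlapped by 85.7% of the kept, 64.3% of the lost and 45.5% of the gained regions, and neither such a gene nor a pseudogene by 11.1%, 31.2% and 27.3%. Kept regions are the wider ones, and no test was made of these shares. The median distance from a lost region to the nearest kept region was 4730 bp, and 51 of 221 lay within 1 kb of one.

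The widest lost region, chr1:17278519-17280226 (TAIR10), lay over the long non-coding RNA gene AT1G07317 and had 1130, 1694 and 1230 bp under peaks in Ctrl and 0 in GFP-FIE. The next, chr1:18957404-18959104, overlapped no annotated gene and had 1001, 1462 and 1000 bp in Ctrl. The other 3 lay on chromosomes 4 and 5. The region chr5:17984364-17985959 overlapped AT5G44585, a long non-coding RNA gene and MIR5628, with 802, 589 and 563 bp in Ctrl. At chr4:1604992-1606492, over AT4G03610, the Ctrl libraries had 1069, 451 and 237 bp, the least even of the 5, and at chr5:9614540-9615943, over no annotated gene, 950, 1228 and 1174 bp. All 5 regions had 0 bp in every GFP-FIE library.

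Of the 22 gained regions 10 were on chromosome 3, 45.5% against 18.8% of the kept regions. The widest, chr3:20740771-20742270, overlapped AT3G55890 and AT3G55900 and had 433, 948 and 1114 bp in GFP-FIE. On chromosome 4, chr4:3871621-3873054 overlapped the pseudogenes AT4G06664 and AT4G06666, with 792, 1176 and 446 bp, and chr4:3849568-3850421 overlapped the pseudogene AT4G06656, with 273, 854 and 308 bp. Pseudogenes here are rows that the gene table annotates as such, and these 2 regions and another gained region lay within 30.3 kb of each other. The region over AT5G33390, chr5:12661808-12662808, had 778, 408 and 746 bp. The region beside FIE, chr3:7247812-7248548, overlapped AT3G20730 and the long non-coding RNA gene AT3G04015 and had 426, 493 and 665 bp. All had 0 bp in every Ctrl library.

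Within the 4269 kept genes the covered length differed little. The median gene had 929, 946 and 890 bp covered in the Ctrl libraries and 827, 865 and 828 bp in the GFP-FIE libraries, each GFP-FIE value below each Ctrl value. The difference in mean covered length had a median of −40.7 bp (quartiles −141 and 15.3 bp), and 80.1% of genes differed by no more than 200 bp. Genes covered over at least 90% of their length numbered 642, 649 and 573 in Ctrl and 504, 563 and 499 in GFP-FIE. All 3 GFP-FIE lengths lay below all 3 Ctrl lengths at 597 genes (14.0%) and above them at 124 (2.9%). With a −log10 q of at least 5 these counts were 324 and 113 of 3137 kept genes. At a single gene, 3 against 3 libraries can split so in either direction with a probability of 0.1 where genotype makes no difference. That is the smallest p of a two-sided exact permutation test. Single genes named as covered less or more are therefore descriptions and not calls.

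**Figure D3:**
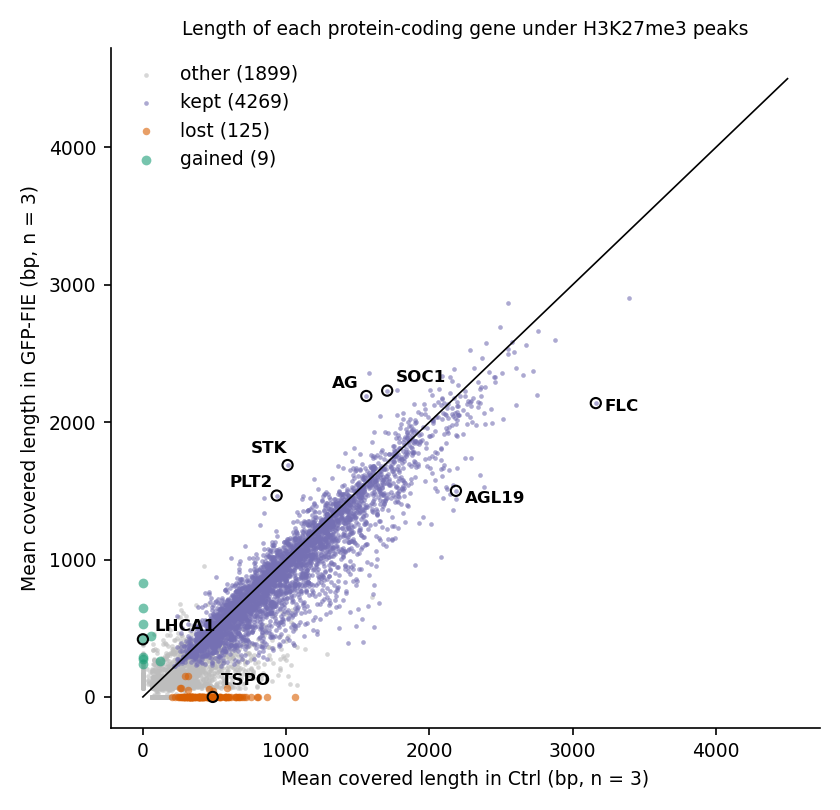
Mean length in bp of each protein-coding gene under H3K27me3 peaks in 3 Ctrl (horizontal) and 3 GFP-FIE libraries (vertical), for the 4269 kept, 125 lost, 9 gained and 1899 otherwise marked genes, with a line at equality. Kept genes lie along the line and mostly just below it, lost genes on or near the horizontal axis, and FLC and AGL19 stand well below the line.

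FLC (AT5G10140) is the MADS-box repressor of flowering that Polycomb silences after cold. Among kept genes whose groups did not overlap, it was among the 5 with the largest decrease. It had 3037, 3782 and 2666 bp in Ctrl and 1710, 2565 and 2141 bp in GFP-FIE. Its RNA was low and rose from 1.55 to 2.41 CPM (log2 fold change 0.63, SE 0.16, edgeR adjusted p = 0.00206, n = 3). FAR4 (AT3G44540), a fatty acyl-CoA reductase of suberin synthesis, had 1545, 1873 and 1196 bp in Ctrl and 390, 517 and 282 bp in GFP-FIE. VEL2 (AT2G18880), a relative of the cold-response factor VIN3, had 1416, 1824 and 1602 bp in Ctrl and 713, 603 and 200 bp in GFP-FIE. The groups were apart at all of these because only such genes were ranked. NUC-L2 (AT3G18610), a nucleolin, had 2197, 1903 and 2134 bp and 836, 930 and 1294 bp. Its RNA rose from 0.157 to 0.469 CPM (edgeR log2 fold change 1.55, SE 0.49, adjusted p = 0.0132), a call lost without Ctrl replicate 2 (adjusted p = 0.108) or GFP-FIE replicate 1 (adjusted p = 0.125). LUP5 (AT1G66960), an oxidosqualene cyclase, had 1775, 1509 and 1015 bp in Ctrl and 708, 255 and 223 bp in GFP-FIE.

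SOC1 (AT2G45660), the MADS-box activator of flowering that FLC represses, was covered further in GFP-FIE, with 1808, 1616 and 1692 bp in Ctrl and 2388, 2072 and 2228 bp in GFP-FIE. Its RNA fell from 36.1 to 25.4 CPM (log2 fold change −0.51, SE 0.05, edgeR adjusted p = 1.89e-11). PLT2 (AT1G51190), an AP2-type factor of the root stem cell niche, had 893, 976 and 932 bp in Ctrl and 1544, 1485 and 1368 bp in GFP-FIE. NCED2 (AT4G18350), of the dioxygenase family that forms the abscisic acid precursor, had 1106, 764 and 656 bp and 1470, 1334 and 1532 bp. The genes of this paragraph were ranked only among those with all 3 GFP-FIE libraries above every Ctrl library. AT1G40104 had 1865, 1707 and 1163 bp in Ctrl and 2161, 2636 and 2266 bp in GFP-FIE. AT1G61660 had 994, 701 and 834 bp and 1558, 1389 and 1071 bp, and its RNA fell from 42.3 to 35.1 CPM (edgeR log2 fold change −0.27, SE 0.04, adjusted p = 9.06e-07).

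In lists of developmental and reference genes, 114 genes in all, 78 were kept, 1 lost, 2 gained, 27 unmarked in all 6 libraries and 6 marked in some libraries only. Of all protein-coding genes 15.6% were kept, 0.455% lost and 0.0328% gained. Of the 78 kept genes 7 were covered less, 5 more, and 66 had overlapping groups, where 14.0% of all kept genes were covered less and 2.9% more. The lists were drawn up with earlier results of these data known, and their counts are descriptions.

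Of 28 genes of floral organ identity and flowering time, 24 were kept, 3 were unmarked and 1 was marked in a single library. Beside FLC, AGL19 (AT4G22950), a MADS-box promoter of flowering after cold, was covered less, with 2182, 2399 and 1975 bp in Ctrl and 1173, 1656 and 1671 bp in GFP-FIE. The floral homeotic gene AG had 1780, 1659 and 1240 bp in Ctrl and 2736, 2482 and 1353 bp in GFP-FIE, and the ovule identity gene STK 1607, 423 and 1000 bp and 1559, 1848 and 1656 bp. At both the groups overlapped. AP3, which specifies petals and stamens, had 2100, 1996 and 1980 bp in Ctrl and 1998, 2033 and 2007 bp in GFP-FIE, close in all 6 libraries. MAF1, MAF2 and MAF3, relatives of FLC, had no peak in any library, and SVP, a partner of FLC, had 226 bp in 1 Ctrl library. In RNA 5 of the 27 tested rose and 5 fell (FLC, MAF4, MAF5, FT and AGL17 against SEP1, FUL, SOC1, SVP and TFL1), where 14.4% of all genes tested rose and 15.3% fell. MAF4 rose from 1.87 to 4.69 CPM (edgeR log2 fold change 1.33, adjusted p = 5.71e-09) with its covered lengths overlapping, at 1340, 1080 and 864 bp in Ctrl and 849, 1063 and 1175 bp in GFP-FIE. FT, the flowering signal that moves from leaf to shoot tip, stood at 0.145 CPM in Ctrl and rose to 0.421 CPM (edgeR log2 fold change 1.51, adjusted p = 0.00570) with 1142, 882 and 1119 bp and 907, 1229 and 1100 bp.

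Of 16 meristem, boundary and homeobox genes 14 were kept, all with overlapping groups, and WOX2 and ATH1 had no peak. STM, the homeobox gene that maintains the shoot meristem, had 2597, 2147 and 2782 bp in Ctrl and 3053, 2108 and 1918 bp in GFP-FIE. KNAT6, of the same homeobox class, had 2270, 2285 and 2042 bp in Ctrl and 1841, 1860 and 2460 bp in GFP-FIE. In RNA 0 of the 14 tested rose and 5 fell (KNAT2, KNAT6, WOX1, ATH1 and BLH9), beside the same 14.4% and 15.3% of all genes tested.

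In the embryo list 2 genes marked in every Ctrl library were marked in fewer GFP-FIE libraries. PHE1 (AT1G65330), an imprinted MADS-box gene of the endosperm, had 670, 551 and 764 bp in Ctrl and 0, 272 and 0 bp in GFP-FIE. LEC1, a regulator of embryo maturation, had 421, 363 and 488 bp in Ctrl and 0, 449 and 373 bp in GFP-FIE. The other 8 of the 10 embryo and imprinted genes were kept, and among them ABI3, a seed maturation factor, was covered more, with 2240, 2399 and 2210 bp in Ctrl and 2552, 2573 and 2449 bp in GFP-FIE. LEC2, a further regulator of embryo maturation, had 955, 1367 and 748 bp and 792, 927 and 1012 bp. DOG1, which sets seed dormancy, rose in RNA from 0.679 to 2.33 CPM (edgeR log2 fold change 1.77, adjusted p = 1.44e-08) with 1098, 1075 and 949 bp covered in Ctrl and 966, 1042 and 1283 bp in GFP-FIE. Of 8 seed storage genes 7 were kept with overlapping groups, and OLEO2 had no peak.

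Root identity genes differed in both directions. Of 7 listed, 6 were kept, and beside PLT2 the root hair factor RHD6 was covered more, with 1260, 885 and 1189 bp in Ctrl and 1383, 1561 and 1386 bp in GFP-FIE. PLT1, the close relative of PLT2, was covered less, with 1216, 1292 and 967 bp in Ctrl and 843, 905 and 738 bp in GFP-FIE. WOX5, which marks the quiescent centre, was covered less too, with 1071, 932 and 1120 bp and 812, 857 and 842 bp. SCR had no peak in any library. Of 11 YUCCA genes, which encode the flavin monooxygenases of auxin synthesis, 8 were kept. YUC2 had 1745, 1803 and 1769 bp in Ctrl and 1372, 1624 and 1460 bp in GFP-FIE, and YUC10 had 1525, 1479 and 1461 bp and 1305, 1289 and 1228 bp, both without overlap. Thus 2 of the 6 kept root genes were covered less and 2 more, and 2 of the 8 kept YUCCA genes less. Of all kept genes 14.0% were covered less and 2.9% more, and no test was made of these counts.

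Of 9 genes for PRC2 subunits and their partners, VIN3 alone had peaks, with 1240, 1220 and 1385 bp in Ctrl and 1111, 1184 and 1179 bp in GFP-FIE. Beside 14.4% of all genes tested, 1 of the 8 tested here rose in RNA. That gene was FIE, which went from 17.6 to 25.5 CPM. Its values were 15.7, 18.3 and 18.6 CPM in Ctrl and 25.2, 27.6 and 23.8 CPM in GFP-FIE (log2 fold change 0.54, SE 0.06, edgeR adjusted p = 1.08e-09, n = 3). The counts do not separate RNA of the transgene from RNA of the mutant locus.

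Of 8 photosynthesis genes, LHCA1 was gained and RBCS1A, RBCS2B and LHCB1.1 were kept, although these are among the most abundant transcripts. RBCS2B, a small subunit of Rubisco, had 910, 830 and 874 bp in Ctrl and 805, 672 and 865 bp in GFP-FIE. LHCB2.1, of the main antenna of photosystem II, had 447, 201 and 0 bp in Ctrl and 0 in GFP-FIE. RBCS2B, LHCB1.1 and LHCB2.1 have near-identical copies, so the placing of their reads is uncertain. Of 6 housekeeping genes UBQ10 was gained and the other 5 had no peak.

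**Figure D4:**
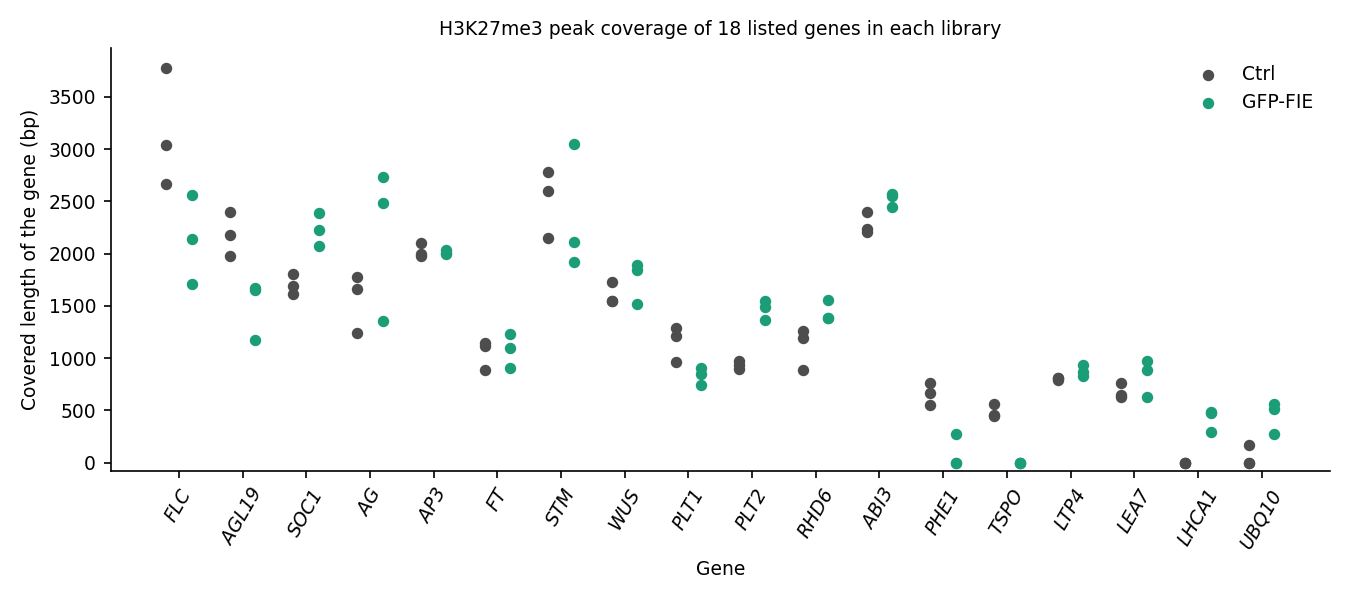
Length in bp of 18 listed genes under H3K27me3 peaks in each of 3 Ctrl and 3 GFP-FIE libraries. Points of the groups are apart for FLC, AGL19, SOC1, PLT1, PLT2, RHD6, ABI3, PHE1, TSPO, LTP4, LHCA1 and UBQ10 and overlap for AG, AP3, FT, STM, WUS and LEA7.

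RNA was counted in 3 libraries per genotype, with 28866845 to 30716649 counts each. Of 20046 genes tested, 2893 (14.4%) rose and 3073 (15.3%) fell in GFP-FIE at an edgeR adjusted p under 0.05, and 163 (0.813%) rose and 393 (1.96%) fell by at least 2-fold. The tissue label was borne out by markers: 7 leaf photosynthesis genes summed to 45260 to 46120 CPM in Ctrl and 48330 to 48820 CPM in GFP-FIE. The 7 root genes summed to 81.9 to 83.5 and 68.2 to 71.3 CPM, nearly all from SCR and SHR, with the other 5 under 1 CPM. The 8 seed storage genes summed to 0.180 to 0.618 and 0 to 0.466 CPM, with SESA1 at 0 in all 6 libraries.

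Genes that lost the mark showed small RNA changes. Of the 125 genes that lost it 56 had enough RNA to be tested, and 12 of these rose (21.4%) and 6 fell (10.7%), with 1 in each direction reaching 2-fold and a median log2 fold change of 0.12. Among tested kept genes 14.9% rose and 20.5% fell, and among tested genes unmarked in all 6 libraries 14.1% and 14.9%. Of the genes lost with equal numbers of peaks as well, 17 were tested, and 3 rose and 5 fell, an alternative added after seeing the data. Changes of at least 2-fold took a larger share of the tested kept genes, of which 63 (3.34%) rose and 127 (6.73%) fell, than of the tested unmarked genes, of which 63 (0.38%) rose and 221 (1.33%) fell; the difference was not tested. Kept genes have lower RNA levels than unmarked ones. Median Ctrl levels were 2.1 and 16.2 CPM among tested genes, and 0.0963 and 10.5 CPM with untested genes included. Of tested kept genes covered less in GFP-FIE 15.4% rose and 19.0% fell, and of those covered more 15.7% and 28.6%.

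**Figure D5:**
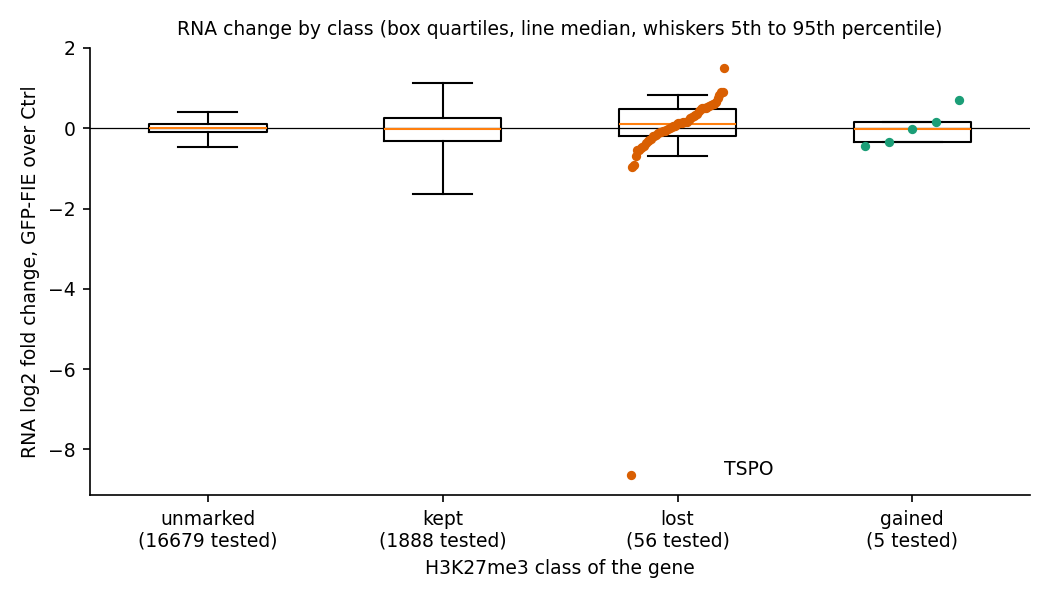
RNA log2 fold change of GFP-FIE over Ctrl (vertical) for tested protein-coding genes that were unmarked, kept, lost or gained, with boxes at the quartiles, a line at the median, whiskers at the 5th and 95th percentiles and points for each lost and gained gene. The boxes straddle 0 in every class, and TSPO, whose GFP-FIE value rests on 3 counts, lies far below the others.

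TSPO (AT2G47770), a membrane protein induced by abscisic acid and osmotic stress, lost its mark and fell in RNA. Peaks covered 451, 447 and 565 bp in Ctrl and 0 bp in GFP-FIE, and RNA was at 17.5, 16.9 and 13.5 CPM in Ctrl and 0.0359, 0 and 0.0748 CPM in GFP-FIE. The 1318 counts in Ctrl against 3 in GFP-FIE gave a ratio of 450, with a 95% interval of 154 to 2180 for counting error only (edgeR adjusted p = 5.12e-28). AT4G34770 rose most among the lost genes, from 1.34 to 3.78 CPM (edgeR log2 fold change 1.50, SE 0.16, adjusted p = 2.28e-10). AT1G79520 fell from 43.8 to 22.3 CPM (edgeR log2 fold change −0.97, SE 0.05, adjusted p = 2.68e-20). UGT84A4, a glycosyltransferase, fell by 0.91 on the log2 scale (edgeR adjusted p = 0.0131), a call lost without Ctrl replicate 3 (−0.78, adjusted p = 0.0736) or GFP-FIE replicate 3 (−0.80, adjusted p = 0.0622). The next 6 by size among the lost genes that passed the test all rose, by log2 fold changes of 0.50 (AT4G37530) to 0.90 (AT5G46871), the others being AT5G03060, AT5G54148, AT4G25020 and AT1G33790. The calls of AT5G03060, AT5G46871 and AT5G54148 were lost without at least 1 of the libraries.

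Of the 5 gained genes tested, LHCA1 rose from 5749 to 6456 CPM (log2 fold change 0.17, SE 0.01, edgeR adjusted p = 2.35e-14) and LHCB4.3 fell from 64.2 to 47.0 CPM (−0.45, SE 0.04, adjusted p = 8.27e-14). UBQ10 stood at 1152 and 1132 CPM (edgeR log2 fold change −0.02, adjusted p = 0.271). AT3G20730, beside FIE, stood at 0.509 and 0.831 CPM (edgeR log2 fold change 0.70, adjusted p = 0.0833), and AT3G55890 at 0.958 and 0.760 CPM (−0.33, adjusted p = 0.416).

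Most genes with the greatest falls in RNA had the mark in both genotypes. Of the 10 with the greatest falls 8 were kept, TSPO was lost and AT3G17520 had no peak. Of all 19440 protein-coding genes tested, 1888 were kept. LTP4 (AT5G59310), a lipid transfer protein, had 43.4 CPM in Ctrl and 0.0477 CPM in GFP-FIE (edgeR adjusted p = 7.73e-38). Peaks covered 808, 794 and 805 bp of it in Ctrl and 931, 865 and 827 bp in GFP-FIE, each of the latter above each of the former. LEA7 (AT1G52690), one of the late embryogenesis abundant proteins, stood at 160.4 CPM in Ctrl and fell to 0.241 CPM (edgeR log2 fold change −9.35, adjusted p = 1.39e-45) with 625, 650 and 765 bp in Ctrl and 626, 969 and 889 bp in GFP-FIE. LTI65 (AT5G52300), a cold and drought response protein, fell from 154.0 to 0.506 CPM (edgeR log2 fold change −8.24, adjusted p = 3.23e-46) with 1610, 1696 and 1486 bp and 1077, 1430 and 1591 bp. At LEA7 and LTI65 the groups overlapped. AT2G42560, LEA18, GASA3 and AT1G27461 had 285, 181, 181 and 100 counts in Ctrl and 0 in GFP-FIE, at least 97.3-, 61.8-, 61.8- and 34.1-fold lower against a floor of 3 counts over the group. AT5G50360 had 463 counts in Ctrl and 1 in GFP-FIE, a ratio of 474 with a 95% counting interval of 84.7 to 18800.

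In the list of 11 LEA, cold and abscisic acid response genes, which was drawn up with these falls known, 10 fell and COR15A did not pass the test, beside 15.3% of all genes tested that fell. Of the 11, 7 were kept, TSPO was lost, and LEA4-5 and RD29A had no peak in any library. KIN1, a cold-induced gene, had 0, 200 and 288 bp in Ctrl and 0 in GFP-FIE.

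Beside 1888 kept of 19440 protein-coding genes tested, 7 of the 10 genes with the greatest rises were kept. UGT76B1 had no peak, and AZI1 and AT1G65760 were marked in 5 of the 6 libraries. All 10 were at low levels in Ctrl, with 0 to 12 counts over its 3 libraries. EARLI1, AZI1 and AT3G46280 reached 3.59, 3.01 and 3.05 CPM in GFP-FIE replicate 1 and at most 0.112, 0.112 and 0.150 CPM in the other libraries of GFP-FIE, and UGT76B1 0.323 CPM against at most 0.0705. Without that replicate the edgeR adjusted p was 0.357 for EARLI1, 0.733 for AZI1, 0.584 for AT3G46280 and 0.114 for UGT76B1, and the log2 fold change of AZI1 was −0.41, in the other direction. AGL21 and MYB24, transcription factors with 8 and 12 counts in GFP-FIE, lost the call when single libraries were left out. AT5G17090, with 3 counts in Ctrl and 57 in GFP-FIE (edgeR adjusted p = 3.44e-08), was covered over 758, 825 and 763 bp in Ctrl and 916, 918 and 922 bp in GFP-FIE. AGL21 was covered over 2042, 2118 and 1948 bp in Ctrl and 1564, 1664 and 1515 bp in GFP-FIE. VIM5, of the family that reads DNA methylation, had 2074, 2238 and 1855 bp and 2048, 1454 and 1001 bp. These 10 genes were chosen because their RNA rose, and their covered length was greater in GFP-FIE at some and smaller at others.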

How the data were processed

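H3K27me3 ChIP-seq was analysed from 6 peak lists and RNA-seq from a count table. Per the submitters' processing notes, reads were handled with FastQC 0.11.5, Trimmomatic 0.36, BWA 0.7.15-r1142, SAMtools 1.6 and MACS2 (version not given) for ChIP, and with HISAT2 2.1.0 and featureCounts of Subread 1.5.3 for RNA. The builds named there are TAIR10 and hg19, with no role given. The peak lists fit TAIR10: 4913 genes were marked in all Ctrl libraries as placed, and 3485 to 4182 after shifts of 1 to 20 kb. The authors called peaks per library and deposited for each its score, fold enrichment, −log10 p-value and −log10 q-value; controls and read depth of these libraries are not given in the sources used here. The RNA values are the authors' deposited raw counts per gene, of 28866845 to 30716649 per library here.

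Genes were placed by a RefSeq table of TAIR10.1, used for names and overlap only, and 31912 of 32678 count rows matched it. A gene was marked where peaks covered at least 200 bp. Lost meant 3 of 3 Ctrl and 0 of 3 GFP-FIE libraries, gained the reverse, and kept all 6. Peaks of all libraries were merged where they overlapped. Library values were compared by exact permutation tests. RNA was fitted with edgeR 4.0.16 in R 4.3.3 (quasi-likelihood test, TMM, filterByExpr, 12 libraries of 4 genotypes, Benjamini-Hochberg adjustment over 20046 genes, threshold 0.05). Standard errors were taken from the fold change and the F statistic. Scripts were tested on simulated data. Same-numbered libraries did not deviate together.

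Alternatives were a stricter q, equal peak numbers, other overlap rules, left-out libraries, a replicate block and, for RNA, DESeq2 1.42.0 and other filters and scaling. Named genes were the 10 lost and 10 gained with the longest coverage, and the 10 of each with the largest RNA change. Among kept genes whose groups did not overlap, the 5 with the largest decrease and the 5 with the largest increase were named. So were the 10 largest RNA rises and falls, up to 4 genes per list, and the 5 widest lost and gained regions. The members and the lists were chosen with earlier results of these data known. Of 115 list entries 1 was dropped because its symbol was not paired with its ID. Promoter sequence was not analysed here.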

Additional observations from a re-analysis of the deposited data

Results flagged for a closer look

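Outside the nuclear chromosomes, the GFP-FIE lists held 0, 1 and 3 peaks on the mitochondrial genome where every Ctrl list held 0, and 7, 6 and 6 peaks on the chloroplast genome where Ctrl held 7, 5 and 3.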

How the results depend on the processing

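The ratios of peak number (0.850) and covered length (0.845) kept their direction in every alternative run (covered length 0.909 at equal peak numbers), with the replicate block included (exact sign-flip p = 0.25, the smallest that 3 pairs allow). Counts of single genes and regions depended on the rule. Against 125 lost genes, equal peak numbers gave 48, and at least 50% of the gene covered gave 78, of which 9 were among the 125; leaving out a library gave 164 to 235. Against 9 gained genes, a −log10 q of at least 5 gave 4, equal peak numbers 20, at least 500 bp 1 (not among the 9), and leaving out a library 12 to 21. The 10 genes gained under the 50% rule shared 0 with the 9. Requiring 500 bp gave 101 lost genes, of which 12 were among the 125. A −log10 q of at least 5 gave 123 lost regions against 221, 13 gained against 22, and 324 kept genes covered less against 597. Leaving out a library gave 304 to 465 lost and 30 to 47 gained regions. With fewer libraries the rule asks for agreement among fewer, so these counts can only grow. Same-numbered libraries shared only a number (correlations of −0.0147 to 0.0289 in RNA), and the replicate block gave 2852 genes that rose and 3039 that fell, against 2893 and 3073. Of the lost genes, 3 rose when those lost at equal peak numbers alone were counted, against 12. Among 481 RNA values of 45 named genes, 455 kept direction and call, 21 lost the call, 1 gained it and 4 changed sign: AZI1 (−0.41 without GFP-FIE replicate 1, and 3.41 at the other end of its range) and YUC2 (0.0385, 0.0892 and 0.0658 without Ctrl replicate 1, GFP-FIE replicate 2 and GFP-FIE replicate 3, in a range of −0.26 to 0.0892, against −0.02), neither past the threshold where the sign changed. The causes were not tested. DESeq2 gave no adjusted p for 11654 of 32678 genes. Peak lists carry no read counts, so a weak signal below the calling threshold is not told from none.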
